A study of Mus musculus with 12 samples.

Results

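The genes described here are the cytokines and receptor chains of the common gamma chain family. They were taken by name and are 9 of the 770 genes on a mouse immune panel read by nCounter, which counts single RNA molecules through barcoded probes. The 9 are the ligands Il2 and Il15, the private alpha chains Il2ra and Il15ra, the beta chain Il2rb, the common gamma chain Il2rg, and the chains Il7r, Il21r and Il4ra. The samples were 12 A20 tumors, 4 in each of 3 groups. A20 is a B-cell lymphoma line of Balb/c mice, and its cells were placed under the skin of female Balb/c mice aged 7 to 8 weeks. From about 7 days later the tumors received PBS, a stable oil-in-water emulsion (SE), or glucopyranosyl lipid A in that emulsion (GLA-SE), every other day for 3 injections. GLA is a synthetic agonist of the endotoxin receptor TLR4, and the dose was 10 µg in 2% SE. Each tumor came from a different mouse and was collected whole 2 h after the last injection. Although the labels name A20 cells as the cell type, the RNA is that of all cells in the tumor, so that more cells of a type and more RNA per cell cannot be told apart. The labels name no engineered allele, and all 3 groups shared the host strain, the cell line and the injection schedule.

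Cytokines of this family signal through receptors that contain the common gamma chain, the product of Il2rg, which is bound inside the cell by the kinase Jak3. IL-2 and IL-15 also share the beta chain Il2rb, and each has an alpha chain of its own that raises affinity or presents the cytokine to neighbouring cells, while IL-4, IL-7 and IL-21 pair the gamma chain with Il4ra, Il7r and Il21r. The receptors act through STAT factors to sustain T cells, NK cells and B cells, and IL-2 is best known as the growth factor of activated and regulatory T cells.

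Deposited totals over the panel were 812522 to 1086462 counts in PBS tumors, 810260 to 1268512 in SE tumors and 1186487 to 1612415 in GLA-SE tumors. Counts were divided by the geometric mean of 16 reference genes, chosen once over all 12 tumors, and are called normalized counts below. That mean was 1972 to 2558 in PBS tumors and 1693 to 1932 in GLA-SE tumors, but ran from 927 in SE tumor 4 to 2806 in SE tumor 1, so the SE tumors were the most unequal. The panel as a whole lay higher after GLA-SE: the median log2 fold change against PBS was 0.90 over the 750 genes tested. Values of each member are therefore set beside that median. Probes differ in efficiency, and no level of one gene is compared with that of another.

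Of the 9 genes, 8 were called higher in GLA-SE than in PBS tumors, at an adjusted p under 0.05 by edgeR's quasi-likelihood test with Benjamini-Hochberg adjustment over 750 genes, and none was called lower. Across the panel 68.4% of genes were called higher and 0.4% lower, so the count is read against a panel in which most genes were called higher. The members differed in size of change, from Il2ra with the largest to Il21r and Il2 below the panel median. Their median log2 fold change was 1.39 against 0.90 for all genes tested. Relative to that 0.90, Il2ra was higher by 1.36, Il2rb by 0.79, Il15ra by 0.77 and Il15 by 0.70. Il2rg was higher by 0.49, Il7r by 0.45 and Il4ra by 0.41, whereas Il21r was at -0.37 and Il2 at -0.58. For the 8 genes called, every GLA-SE tumor lay above every PBS tumor, which gives an exact two-sided permutation p of 0.0286 for each, the smallest that 4 against 4 tumors allow. The same held for 63.7% of the panel, and 1.07% of genes lay below without overlap. SE alone against PBS gave no call for any member, and GLA-SE against SE gave none by the same test.

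**Figure D1:**
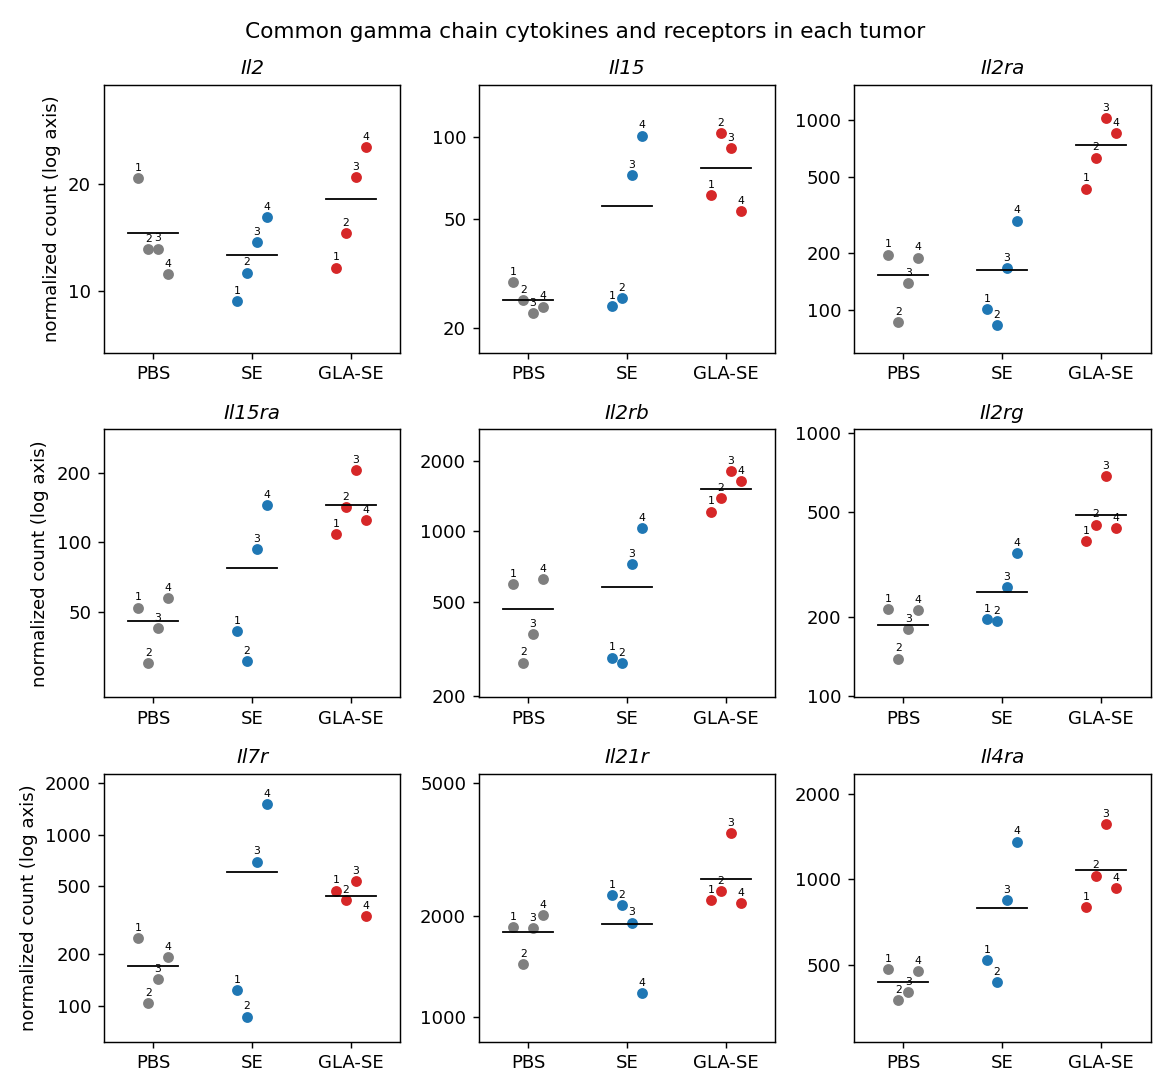
Normalized counts of the 9 genes (log axis) in the 12 tumors, with 1 point for each tumor, its replicate number above it and a line at the group mean. GLA-SE tumors lie above all PBS tumors in every panel except that of Il2, and SE tumors 3 and 4 lie apart from SE tumors 1 and 2 for Il15, Il15ra, Il2rb, Il7r and Il4ra. Before scaling, that gap was narrower for Il15, Il15ra, Il2rb and Il7r and absent for Il4ra.

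Il2, the cytokine made mainly by activated T cells, was near the lower end of what the assay reads. Its deposited counts were 8 to 25 in all 12 tumors, around the count of 20 that the study's methods used as a threshold. Normalized counts were 20.8, 13.1, 13.2 and 11.1 in PBS tumors 1 to 4, then 9.33, 11.2, 13.7 and 16.1 in SE tumors and 11.6, 14.6, 21.0 and 25.6 in GLA-SE tumors. The groups overlapped, and the log2 fold change of GLA-SE against PBS was 0.32 ± 0.31 (standard error, n = 4 tumors a group, as in all fits; adjusted p = 0.364 by edgeR). A difference in Il2 was not detectable at these counts.

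Il15, a cytokine made by macrophages and dendritic cells that sustains NK cells and memory T cells, lay in a narrow range in PBS tumors, at 29.4, 25.2, 22.7 and 23.8 normalized counts. SE tumors 1 and 2 had 24.0 and 25.6, within that range, whereas SE tumors 3 and 4 had 72.2 and 101. GLA-SE tumors had 61.0, 103, 90.5 and 53.2, all above PBS and on both sides of SE tumors 3 and 4. Il15 rose in GLA-SE against PBS by a log2 fold change of 1.60 ± 0.26 (adjusted p = 0.00109 by edgeR). Against SE the value was 0.48 ± 0.54 (adjusted p = 0.726 by edgeR), and it was 0.93 without SE tumor 4, 0.23 without SE tumor 1, 0.24 without SE tumor 2 and 0.31 without GLA-SE tumor 2. The summed macrophage markers moved with it, at 29114 to 37368 in PBS, 24329 to 107060 in SE and 83834 to 125090 in GLA-SE tumors. Most of that sum was Lyz2, for example 33649 of 37368 in PBS tumor 1 and 75952 of 84344 in GLA-SE tumor 1. A ratio to the sum is thus mainly a ratio to Lyz2. The log2 ratio of Il15 to those summed markers differed between GLA-SE and PBS by -0.003 (exact two-sided permutation p = 1.0, the groups overlapping), and between SE and PBS by 0.26 without overlap (exact p = 0.0286, adjusted p = 0.162 over 108 such ratios). Between GLA-SE and PBS, Il15 differed by 0.16 per NK-cell and 0.42 per T-cell marker count (exact p = 0.714 and 0.343). Per B-cell marker count it differed by 1.67 (exact p = 0.0286, adjusted p = 0.162). A ratio without separation was thus not particular to macrophage markers.

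Il2ra, the alpha chain CD25 that makes the IL-2 receptor one of high affinity and marks activated and regulatory T cells, changed most. PBS tumors had 196, 86.9, 140 and 189 normalized counts. SE tumors had 102, 83.8, 167 and 297, and GLA-SE tumors 436, 635, 1021 and 852. Every GLA-SE tumor thus lay above every tumor of both other groups. The log2 fold change was 2.27 ± 0.34 against PBS, or 4.81-fold (adjusted p = 0.000701 by edgeR), and ranked 48 of 750 genes. Against SE it was 2.19 ± 0.47 and ranked 23 (unadjusted p = 0.00154, adjusted p = 0.0609 by edgeR), and SE against PBS was 0.08 ± 0.47. Without SE tumor 4 the value against SE was 2.65 and was called (adjusted p = 0.0144 by edgeR). Leaving out that tumor raised the panel genes called higher against SE from 16 to 104. Against SE the value of Il2ra stayed above 0 in all 23 alternatives run, at 1.55 to 2.65, and was called in 10 of them.

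Its promoter is shown because this gene had the largest change of the family. The stretch is the 250 bases before the start of Il2ra in RefSeq, GRCm38.p6, chr2:11642542-11642791, plus strand, 5′ to 3′.
Il2ra promoter: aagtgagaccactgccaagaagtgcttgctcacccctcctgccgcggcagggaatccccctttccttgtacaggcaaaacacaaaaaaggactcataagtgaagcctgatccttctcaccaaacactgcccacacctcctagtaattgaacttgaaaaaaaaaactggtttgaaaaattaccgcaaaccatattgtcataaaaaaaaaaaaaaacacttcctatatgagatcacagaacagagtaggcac

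Motifs were searched on both strands of the promoter windows that the RefSeq table held for 7 of the 9 members: a STAT site (TTCNNNGAA), the core of the interferon-stimulated response element, a kB site and an AP-1 site (TGANTCA). Each motif was searched in a fixed spelling only, and that of the kB site left a free base at a single position. The matches found did not overlap each other, and none to these spellings was in the window of Il2ra. Other spellings of the kB site were not searched, so whether the Il2ra window holds a kB site was not tested. Among all 32851 promoter windows of this length, 7.02% held the STAT letters, 2.98% the interferon element core, 0.356% the kB spelling searched and 6.75% the AP-1 letters. Il15 and Il2rb were not matched in this table.

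Il15ra, the alpha chain with which cells present IL-15 to their neighbours, had 52.1, 29.9, 42.4 and 57.2 normalized counts in PBS tumors and 41.3, 30.7, 93.4 and 145 in SE tumors. GLA-SE tumors had 108, 142, 205 and 125. SE tumors 3 and 4 again lay above all PBS tumors, with SE tumor 4 inside the GLA-SE range. The log2 fold change in GLA-SE against PBS was 1.67 ± 0.29 (adjusted p = 0.00139 by edgeR), close to that of its ligand. Against SE it was 0.91 ± 0.54 (adjusted p = 0.433 by edgeR).

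RefSeq has 2 promoter windows for Il15ra, and the second held an AP-1 match, in capitals, from 30 to 24 bases before the start (GRCm38.p6, chr2:11705462-11705711, plus strand). It is shown because it was 1 of only 2 matches among the 8 windows of the family.
Il15ra promoter, second window: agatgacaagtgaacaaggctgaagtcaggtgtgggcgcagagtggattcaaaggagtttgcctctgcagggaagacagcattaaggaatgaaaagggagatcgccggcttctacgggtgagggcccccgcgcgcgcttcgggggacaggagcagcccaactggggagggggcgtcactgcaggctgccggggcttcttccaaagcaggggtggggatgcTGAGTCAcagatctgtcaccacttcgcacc

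Il2rb, the signalling beta chain shared by the IL-2 and IL-15 receptors and found on NK cells and T cells, had 597, 277, 365 and 629 normalized counts in PBS tumors. SE tumors had 290, 276, 724 and 1035, and GLA-SE tumors 1214, 1382, 1809 and 1636. As with Il2ra, the GLA-SE tumors lay above all others. The log2 fold change was 1.69 ± 0.27 against PBS (adjusted p = 0.0011 by edgeR) and 1.38 ± 0.45 against SE (adjusted p = 0.156 by edgeR). Without SE tumor 4 the latter was 1.81 and was called (adjusted p = 0.0302 by edgeR). Over the 23 alternatives Il2rb ran from 0.82 to 1.81 against SE and was called in 4.

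Il2rg, the common chain itself, had 215, 139, 180 and 213 normalized counts in PBS tumors, 197, 193, 260 and 349 in SE tumors and 388, 448, 687 and 436 in GLA-SE tumors. It was the third member for which GLA-SE lay above all SE tumors too, by the narrow gap between 349 and 388. The log2 fold change was 1.39 ± 0.23 against PBS (adjusted p = 0.00112 by edgeR) and 0.97 ± 0.30 against SE (adjusted p = 0.151 by edgeR). Against SE it was 1.18 and called without SE tumor 4 (adjusted p = 0.0318 by edgeR). Over the 23 alternatives Il2rg ran from 0.13 to 1.18 against SE and was called in 5. Il2ra, Il2rb and Il2rg, the chains of the complete IL-2 receptor, were thus the 3 members whose GLA-SE and SE tumors did not overlap (exact two-sided permutation p = 0.0286 each), where 14.7% of the panel lay above and 0.133% below in the same way. With both SE tumor 4 and GLA-SE tumor 3 left out, a choice made after the data were seen, Il2ra (2.45, adjusted p = 0.0278 by edgeR) and Il2rg (0.97, adjusted p = 0.0467) were called, Il2rb was not, and 52 genes of the panel were called higher.

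The gene most alike Il2rg across the 12 tumors was Jak3, the kinase that binds the gamma chain. Likeness was the root-mean-square difference between centred log2 values, searched over 694 genes, and was 0.0812 for this pair against a spread of 0.652 for Il2rg itself. This was the smallest difference between any of the 9 genes and any other gene. Since both genes are read in the same tumor, a scaling factor cancels from it almost entirely. Jak3 had 262 to 371 normalized counts in PBS tumors, 312 to 557 in SE tumors and 640 to 1138 in GLA-SE tumors. Its log2 fold changes of 1.29 ± 0.21 against PBS (adjusted p = 0.00112 by edgeR) and 0.92 ± 0.28 against SE (adjusted p = 0.143 by edgeR) were close to those of Il2rg, and without SE tumor 4 it too was called against SE (1.07, adjusted p = 0.0392 by edgeR). Jak3 was called against SE in 3 of the 23 alternatives, with values from 0.055 to 1.07. Next in likeness to Il2rg came Icam1, an adhesion molecule, at 0.15 and the Fc receptor Fcgr2b at 0.161. The values are a description of likeness over these 12 tumors.

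**Figure D2:**
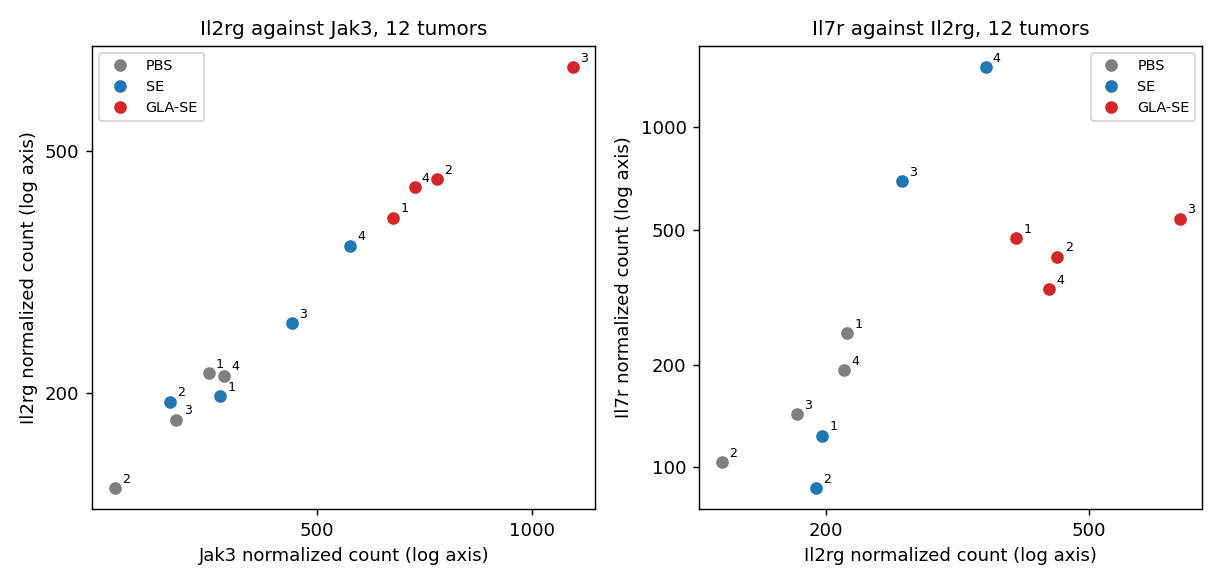
Left, normalized counts of Il2rg against Jak3; right, of Il7r against Il2rg, both on log axes, with 1 point for each of the 12 tumors and its replicate number beside it. Il2rg and Jak3 fall along 1 line across all 3 groups, whereas SE tumors 3 and 4 have more Il7r for their Il2rg than any other tumor.

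The promoters of this closest pair are set side by side. Both are from RefSeq, GRCm38.p6, 5′ to 3′ on the strand of the gene: Il2rg at chrX:101268256-101268505, minus strand, and Jak3 at chr8:71676133-71676382, plus strand. Neither window held any of the motifs in the spellings searched.
Il2rg promoter: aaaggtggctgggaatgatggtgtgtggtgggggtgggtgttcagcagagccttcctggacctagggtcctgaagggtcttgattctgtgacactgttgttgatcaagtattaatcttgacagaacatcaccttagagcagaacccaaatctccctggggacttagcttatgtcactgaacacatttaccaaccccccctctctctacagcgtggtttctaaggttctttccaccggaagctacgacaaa
Jak3 promoter: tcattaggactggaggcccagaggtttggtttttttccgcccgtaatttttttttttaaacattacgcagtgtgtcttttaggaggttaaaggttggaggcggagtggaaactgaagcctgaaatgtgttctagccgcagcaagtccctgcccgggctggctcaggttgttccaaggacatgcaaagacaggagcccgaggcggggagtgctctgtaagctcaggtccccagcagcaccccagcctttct

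Il7r, the IL-7 receptor chain of naive and memory T cells and of lymphoid precursors, was the most variable member among SE tumors. PBS tumors had 248, 104, 143 and 193 normalized counts, and SE tumors 124, 86.9, 695 and 1503. GLA-SE tumors had 471, 416, 538 and 334, all above PBS but all below SE tumors 3 and 4. Il7r rose in GLA-SE against PBS by a log2 fold change of 1.35 ± 0.28 (adjusted p = 0.00337 by edgeR). It was the one member with a negative value against SE, -0.45 ± 0.82 (adjusted p = 0.855 by edgeR), and that sign rested on SE tumor 4, without which the value was 0.55. SE against PBS gave 1.80 ± 0.87 (adjusted p = 0.256 by edgeR), and 0.81 without SE tumor 4. Summed T-cell markers were also highest in SE tumor 4, at 9273, of which Thy1 alone gave 3956. SE tumor 3, however, had a sum of 2831, within the range of 1354 to 3440 in PBS tumors. The sums were 1188 and 1290 in SE tumors 1 and 2, and 4204 to 5661 in GLA-SE tumors.

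The Il7r promoter held the other match, a STAT site in capitals from 142 to 134 bases before the start (GRCm38.p6, chr15:9529877-9530126, minus strand, 5′ to 3′). A match of letters is a description of this stretch only.
Il7r promoter: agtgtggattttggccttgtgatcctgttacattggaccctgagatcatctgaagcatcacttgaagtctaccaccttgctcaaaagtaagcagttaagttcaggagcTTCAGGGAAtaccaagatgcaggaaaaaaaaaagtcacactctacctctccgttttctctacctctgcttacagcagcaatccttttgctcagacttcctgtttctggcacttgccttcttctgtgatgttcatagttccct

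Il21r, carried by B cells, NK cells and T cells, changed least among the genes called. PBS tumors had 1858, 1443, 1844 and 2019 normalized counts, SE tumors 2313, 2159, 1916 and 1182, and GLA-SE tumors 2243, 2386, 3556 and 2196. The lowest GLA-SE tumor was only slightly above the highest PBS tumor. The log2 fold change of 0.54 ± 0.18 (adjusted p = 0.0263 by edgeR) was below the panel median of 0.90, and the call was lost without PBS tumor 2 (0.44, adjusted p = 0.0694 by edgeR) or PBS tumor 3 (0.55, adjusted p = 0.0532). In contrast to most members, Il21r was lowest in SE tumor 4.

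Il4ra, the chain that IL-4 and IL-13 receptors share and that B cells and macrophages carry, had 484, 377, 403 and 476 normalized counts in PBS tumors and 522, 437, 847 and 1358 in SE tumors. GLA-SE tumors had 800.2, 1030, 1562 and 931. The SE tumors again spanned the distance between both other groups. The log2 fold change in GLA-SE against PBS was 1.31 ± 0.21 (adjusted p = 0.00111 by edgeR). In SE against PBS, Il4ra was the one member below 0.05 before adjustment (log2 fold change 0.86 ± 0.35, adjusted p = 0.256 by edgeR), and the value was 0.47 without SE tumor 4.

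**Figure D3:**
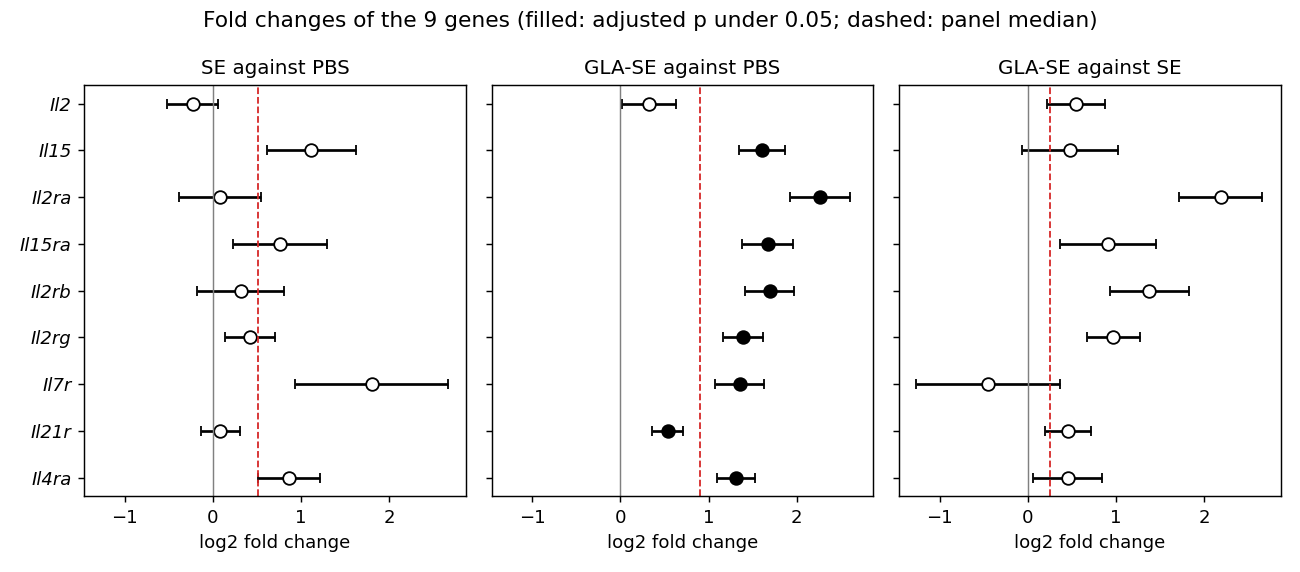
Log2 fold change of each of the 9 genes in the 3 comparisons (points), with its standard error (bars), n = 4 tumors a group. Filled points passed an adjusted p under 0.05 by edgeR, and the dashed line is the median of all 750 genes, 0.51 for SE against PBS, 0.90 for GLA-SE against PBS and 0.25 for GLA-SE against SE.

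Against PBS, SE alone thus left all 9 genes short of a call, as it did all 750 genes by edgeR (0.0% called higher, 0.0% lower). At an unadjusted p under 0.05, 17.1% of the panel was higher and 0.8% lower, and DESeq2 on the same reference genes called 47 genes higher and 6 lower, none of them a member. The members ran from a log2 fold change of -0.23 for Il2 to 1.80 for Il7r, with a median of 0.42 against 0.51 for the panel, and every member's SE and PBS ranges overlapped, while 8.0% of the panel lay above and 1.2% below without overlap. In GLA-SE against SE, 2.13% of the panel was called higher and 0.0% lower, and the members ran from -0.45 for Il7r to 2.19 for Il2ra, with a median of 0.55 against 0.25 for the panel. Both comparisons with GLA-SE use the same 4 GLA-SE tumors and both with PBS the same 4 PBS tumors.

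The size of the change in GLA-SE against PBS depended on how tumors were put on 1 scale. With reference genes, the panel median was shifted up by 0.90, whereas scaling by TMM, by quantiles, by DESeq2's own size factors or by the panel median itself brought that shift to -0.009, -0.06, 0.05 and -0.40. Il2ra was called higher under each of them, at 0.98 to 2.27, and in all 22 alternatives run, the one member of which this held. Under scaling by the panel median it was the only member called higher, Il21r and Il2 were called lower at -0.78 and -0.95, and Il4ra was at -0.0094. Il21r was also lower under TMM (-0.40), quantiles (-0.30) and DESeq2's size factors (-0.34), so its direction depended on the scaling, and that of Il2 turned under the same scalings. Il15, Il15ra, Il2rb, Il2rg and Il7r stayed above 0 under every scaling, but some only just. Over the 22 alternatives their lowest values were 0.30, 0.37, 0.44, 0.083 and 0.098 in that order. They were called higher in 20, 20, 21, 20 and 17 of the 22.

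**Figure D4:**
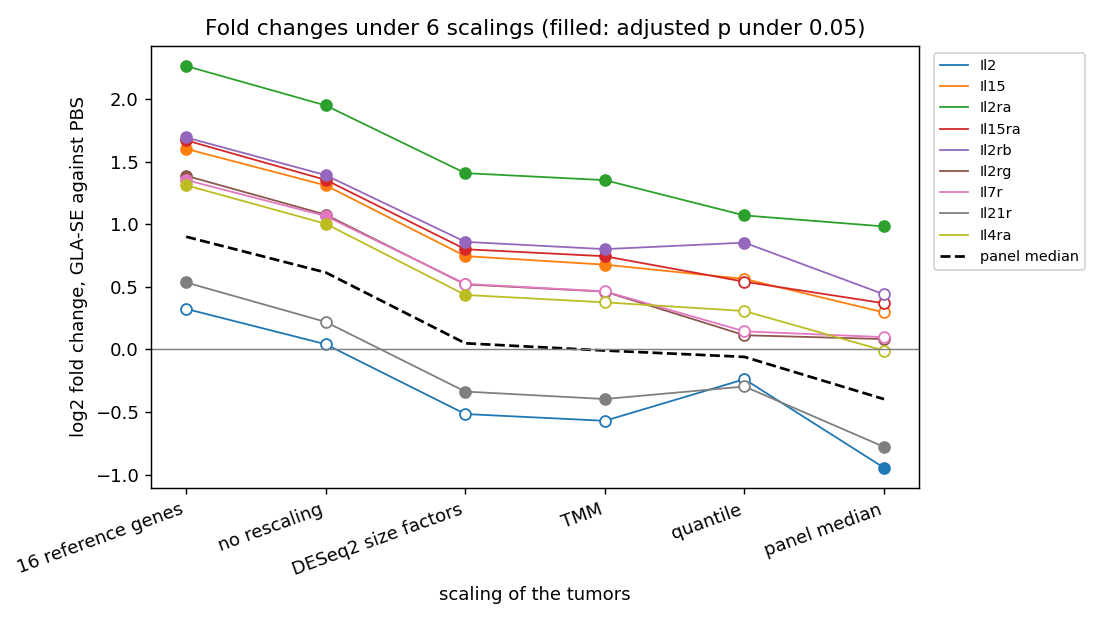
Log2 fold change of each member in GLA-SE against PBS under each scaling of the tumors, joined by a line for each gene; filled points passed an adjusted p under 0.05 and the dashed line is the panel median. Most lines fall with the panel median; Il2ra remains highest and called throughout, while Il21r and Il2 pass below 0.

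Ratios between members within a tumor do not depend on scaling. The log2 ratio of Il2ra to Il2rg was higher in GLA-SE than in PBS tumors by 0.89, and higher than in SE tumors by 1.31, with no overlap in either comparison. Il15ra rose slightly more than Il2rg, by 0.29 against PBS, and the ratio of Il21r to Il2rg was lower by 0.85 (a difference of -0.85), again with no overlap. Each of these had an exact two-sided permutation p of 0.0286 and an adjusted p of 0.171 over 24 ratios, so none passed the adjustment. Of the chains compared, Il7r and Il4ra stayed closest to Il2rg against PBS, at 0.03 and -0.10, with overlap. These ratios were added after the data were seen.

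Set against summed markers of cell types, Il2ra was higher per T-cell marker count in GLA-SE than in PBS tumors by 1.15 on the log2 scale, and than in SE tumors by 1.31. Il2rb was higher by 0.64 and 0.62. All 4 differences were without overlap (exact two-sided permutation p = 0.0286, adjusted p = 0.162 over 108 ratios, also added later). Per NK-cell marker count the differences between GLA-SE and PBS were 0.89 for Il2ra (exact p = 0.0571) and 0.39 for Il2rb (exact p = 0.114), and the groups overlapped. The 9 T-cell markers summed to 1354 to 3440 normalized counts in PBS and 4204 to 5661 in GLA-SE tumors, and 5 of 9 were called higher, against 68.4% of the panel. All 5 markers of regulatory T cells and all 9 of monocytes and macrophages were called higher too, as were 10 of 10 endothelial and fibroblast markers. The counts for NK cells (3 of 7), dendritic cells (2 of 6) and neutrophils (4 of 8), like that for T cells, were below the share of the panel. Their sums were higher all the same. NK-cell sums were 286 to 974 in PBS and 1265 to 1522 in GLA-SE tumors. Dendritic-cell sums were 814 to 1117 and 1520 to 5368, and neutrophil sums 285 to 335 and 1248 to 11454. Of 8 B-cell markers, which the A20 cells themselves carry, 1 was called higher and 2 lower, with sums of 23699 to 27312 in PBS and 21438 to 23759 in GLA-SE tumors. No marker was at 0 in any tumor, but 1 NK-cell and 3 neutrophil markers stayed under 20 normalized counts in all PBS and GLA-SE tumors. In SE tumors 1 to 4 the endothelial and fibroblast sum was 3530, 4405, 28192 and 120660, so that tumors 3 and 4 stood apart here as they did for Il7r and Il15. Most of that sum came from the collagen genes Col1a1 and Col3a1, at 8349 and 18289 in SE tumor 3 and 24479 and 90245 in SE tumor 4. The part of these cell types in the members' values was not tested beyond the ratios.

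The genes nearest to the other members called were less alike than Jak3 was to Il2rg. Il15 was most alike the complement genes C1qa (0.201) and C1qb (0.209), made by macrophages, and the macrophage growth factor Csf1 (0.226). Il2ra was nearest to Bst1 (0.326), Il2rb (0.356) and the lymphocyte pore protein Prf1 (0.358), and Il2rb to the regulatory T-cell factor Foxp3 (0.266), Il15ra (0.271) and Bst1 (0.282). For Il7r the nearest were Trem2 (0.284), a receptor of macrophages, Tnfrsf1a (0.301) and Tlr7 (0.312). Il15ra was nearest to Ikbke (0.191) and Selplg (0.206), Il4ra to Abca1 (0.131), H2-D1 (0.151) and Cd86 (0.162), and Il21r to Flt3 (0.165), Psmb9 (0.175) and Batf (0.18). These root-mean-square differences are on the log2 scale over 12 tumors, and the differences between groups are part of them. The members' own spreads were 0.842 for Il15, 1.2 for Il2ra, 0.901 for Il15ra and 0.975 for Il2rb. They were 1.18 for Il7r, 0.374 for Il21r and 0.676 for Il4ra, so a small difference means less for Il21r, which varied little.

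Other genes of the pathway were counted from a list of 26. Of these, 21 were called higher and 0 lower in GLA-SE against PBS, none was called in SE against PBS, and 3 were called higher in GLA-SE against SE. The panel shares called higher in these comparisons were 68.4%, 0.0% and 2.13%. Among the other ligands, Il7 (0.87 ± 0.23, adjusted p = 0.00914) and Il21 (0.67 ± 0.22, adjusted p = 0.0254) passed by edgeR against PBS, and Il4 and Il9 did not. Deposited counts were 17 to 38 for Il7, 12 to 23 for Il21, 9 to 39 for Il4 and 8 to 21 for Il9. Like those of Il2, they lay around the threshold of 20. The call of Il21 was lost without PBS tumor 2, 3 or 4 or GLA-SE tumor 3 or 4 (adjusted p = 0.0501 to 0.0615 by edgeR). All 5 kinases and STATs passed, with Jak3 at 1.29, Stat3 at 0.95 and Jak1 at 0.80 above Stat5b at 0.49 and Stat6 at 0.41. The signs of Jak1, Stat5b and Stat6 turned under TMM, quantile, DESeq2 and panel-median scaling, as did that of Il21 under all of these but quantiles. Il7 was below 0 under TMM and panel-median scaling (-0.025 and -0.40), and Stat3 (-0.38) and Jak3 (-0.022) under the latter. Both feedback inhibitors were higher, Socs3 by 3.04 ± 0.55 and Socs1 by 1.56 ± 0.29. Il13ra1, which pairs with Il4ra, and Il13ra2, a decoy receptor for IL-13, were higher by 1.29 and 1.34 (Il13ra1 at -0.0013 under panel-median scaling), whereas Il13 itself was not called.

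In GLA-SE against PBS, where 68.4% of the panel was called higher, 4 of 5 genes known as STAT5 targets passed: the granule protease Gzmb (2.67 ± 0.33), Prf1 (2.06 ± 0.39), the survival factor Bcl2 (1.60 ± 0.21) and Foxp3 (1.33 ± 0.33). Bcl2l1 did not pass (0.03 ± 0.12, adjusted p = 0.827 by edgeR) and ran from -1.27 to 0.13 over 22 alternatives. Gzmb and Prf1 were called higher in all 22, Bcl2 in 20 and Foxp3 in 17. Of 7 known as STAT6 targets 6 passed, with Arg1, an arginine-degrading enzyme of macrophages, at 1.76 ± 0.59 (adjusted p = 0.0253 by edgeR). Gzmb (2.80 ± 0.33, adjusted p = 0.00777), Arg1 (2.84 ± 0.34, adjusted p = 0.00777) and Prf1 (2.23 ± 0.33, adjusted p = 0.0131) were the 3 also called in GLA-SE against SE by edgeR, and Arg1 was at 0.473-fold in SE against PBS without a call (adjusted p = 0.311). These 3 calls were lost under panel-median and quantile scaling and with the replicate number as a block. That of Gzmb was also lost under TMM, and that of Prf1 without GLA-SE tumor 2 (adjusted p = 0.0523 by edgeR) or GLA-SE tumor 4 (0.053). Against PBS, the call of Arg1 was lost without PBS tumor 1 or 2 or GLA-SE tumor 2 or 4 (adjusted p = 0.0513 to 0.0624 by edgeR).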

How the data were processed

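RNA of 12 whole tumors was hybridized by the authors to the nCounter mouse PanCancer Immune panel. The deposited values are whole-number counts per probe, not normalized although the methods describe nSolver normalization, with 20 reference genes and 750 others; no genome build or aligner applies. Here, geNorm over all 12 tumors kept 16 reference genes, and each tumor was divided by their geometric mean. Pairwise fits of 8 tumors used edgeR 4.0.16 (glmQLFit, glmQLFTest; R 4.3.3) with that scaling as offsets, no filter and no covariate, Benjamini-Hochberg over 750 genes and a threshold of 0.05. Fold changes are edgeR's fitted values. Exact two-sided permutation tests over 70 assignments used log2(normalized count + 1). Alternatives used TMM, quantile and panel-median scaling, no rescaling, all or per-comparison reference genes, a filter at a count of 20, limma 3.58.1, DESeq2 1.42.0, the methods' t-test, a replicate block and each tumor left out. Scripts were tested on simulated data. Sampling of few molecules limits low counts such as those of Il2. All 9 members and all pathway-list genes could be named, with the 3 genes most alike each member called at least once. One gene that this rule names is not reported here. The members and lists were chosen with earlier results of these data known. Promoter letters are from RefSeq (GRCm38.p6).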

Additional observations from a re-analysis of the deposited data

Results flagged for a closer look

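Among 105 sets of 4 tumors (35 genes in 3 groups), 8 held a tumor that stood off from its group by Dixon's test at 95%, and chance flags about 1 in 20, or 5.25 sets. One set was of a member: Il21r was 3556 normalized counts in GLA-SE tumor 3 against 2196 to 2386 in the other GLA-SE tumors. In that tumor Jak1 (3702 against 2533 to 2718) and Foxp3 (131 against 76.0 to 82.8) also lay apart. GLA-SE tumor 2 had more Il4 (40.6 against 11.6 to 14.4) and Ccl24 (329.8 against 42.0 to 65.8). The Il4 value rested on a low deposited count of 39, against 12 to 13 in the other GLA-SE tumors. SE tumor 4 had more Fcer2a (399 against 34.6 to 62.3), Ccl17 (54.5 against 6.13 to 9.97) and Ccl22 (510.4 against 27.6 to 89.7).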

How the results depend on the processing

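Each member's log2 fold change was recomputed under 22 alternatives where PBS was the control and 23 where SE was; 169 values of GLA-SE against PBS, 168 of SE against PBS and 174 of GLA-SE against SE kept their direction and side of the threshold. In GLA-SE against PBS, panel-median scaling called 1 member higher and 2 lower, with Il2 at -0.95, Il21r -0.78, Il4ra -0.0094, Il7 -0.40, Il21 -0.60, Il13ra1 -0.0013, Jak1 -0.51, Jak3 -0.022, Stat3 -0.38, Stat5b -0.80 and Stat6 -0.90. TMM called 5 higher and 1 lower (Il2 -0.57, Il21r -0.40, Il7 -0.025, Il21 -0.23, Jak1 -0.13, Stat5b -0.42, Stat6 -0.51), and quantiles 2 higher (Il2 -0.24, Il21r -0.30, Jak1 -0.026, Stat5b -0.45, Stat6 -0.38). DESeq2's own size factors called 1 lower (Il2 -0.52, Il21r -0.34, Il21 -0.17, Jak1 -0.068, Stat5b -0.36, Stat6 -0.45), and still called Il15, Il15ra, Il2ra, Il2rb, Il2rg and Il4ra higher. Panel genes called higher and lower, 513 and 3, became 61 and 307, 148 and 168, 108 and 169, and 193 and 153 under these, and 255 and 0 with all 12 tumors in 1 fit. The pathway count of 21 became 4, 7, 4, 9 and 12.

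In SE against PBS, where no member was called under any alternative, values below 0 were found for Il2ra, Il2rb, Il2rg and Il21r under panel-median scaling (-0.56, -0.38, -0.052, -0.088), TMM (-0.50, -0.30, -0.049, -0.17), no rescaling (-0.50, -0.30, -0.039, -0.15), quantiles (-0.58, -0.23, -0.17, -0.39) and DESeq2's own size factors (-0.47, -0.27, -0.0045, -0.11). Il2ra was also at -0.022 and -0.016 with limma at pseudocounts of 1 and 10 and at -0.022 by the methods' t-test. With 1 tumor left out at a time, Il21r ran from -0.031 to 0.25, Il2ra from -0.38 to 0.30 and Il2rb from -0.12 to 0.55.

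In GLA-SE against SE, members called higher rose from 0 to 1 with all reference genes, TMM, and limma at both pseudocounts, to 2 with all 12 tumors in 1 fit, DESeq2's own size factors, and both GLA-SE tumor 3 and SE tumor 4 left out, to 3 without rescaling and with DESeq2 on reference genes, and ran from 0 to 3 with 1 tumor left out. Panel genes called higher were 16 with all tumors, 104 without SE tumor 4, 4 without GLA-SE tumor 2, GLA-SE tumor 4 or SE tumor 3, and 7 and 9 without SE tumors 2 and 1; they were 88 without rescaling, 77 with all 12 tumors in 1 fit, 111 and 54 with DESeq2 on reference genes and on its own size factors, 3 under TMM and 0 under panel-median and quantile scaling. Panel-median scaling gave Il2 -0.27, Il15 -0.073, Il21r -0.69 and Il4ra -0.23, and Il21r was at -0.18 under TMM and -0.28 with DESeq2's own size factors. Il7r was above 0 without rescaling (0.11), with limma (0.41 and 0.37 at pseudocounts of 1 and 10), by the methods' t-test (0.41) and without GLA-SE tumor 3 and SE tumor 4 (0.44), and ran from -0.81 to 0.55 with 1 tumor left out. The cause of these changes was not tested.

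The replicate numbers were not shown to pair tumors. For this, the log2 values of each tumor were taken as deviations from the gene means of its group. The deviations of same-numbered tumors correlated at -0.26 to 0.19. In the 3 comparisons, 2, 1 and 1 of 4 numbers correlated best with their own number. With the replicate number as a block, Il7r was at 0.47 in GLA-SE against SE, Il2ra at -0.018 in SE against PBS, and the panel calls in GLA-SE against SE went from 16 to 0, those of Gzmb, Arg1 and Prf1 among them.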
